A study of Mus musculus with 12 samples.

Results

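The 10 long noncoding RNA (lncRNA) genes Malat1, Neat1, Gas5, Snhg1, Snhg12, H19, Meg3, Kcnq1ot1, Mir155hg and Mirt1 were followed through total RNA-seq of colon and whole blood from a mouse model of ulcerative colitis (UC). They were taken by symbol as lncRNAs known from other work, and all 10 were found in the colon table of 32689 genes and in the blood table of 25514, out of 53801 genes counted. The mice were male wild-type C57BL/6, 8 weeks old when obtained. Mice 1, 2 and 4 are labelled UC, and mice 7, 8 and 9 are labelled control. In the study, UC mice drank 1.5% dextran sulfate sodium (DSS), a sugar polymer that injures the gut lining, for 7 days. Control mice had water without DSS, and all were killed on day 8. Which mice drank DSS is known here only through these labels. Every mouse gave 1 colon and 1 blood library, so that 4 labelled groups of 3 libraries were compared. DSS injures the epithelium chemically, and both samples are mixtures of cell types. Ribosomal RNA was depleted from the colon RNA, whereas the kit used for blood removed globin RNA as well.

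Colon libraries held 69181049 to 103662306 counts each and blood libraries 80867247 to 142536804. The 7SL RNA genes alone took 35.9% to 65.4% of the blood counts, against 4.9% to 6.5% of the colon counts. The tissue is named in a pair of label fields that contradict each other, and the groups follow the tissue characteristic. All 6 absorptive colonocyte markers and all 6 goblet cell markers were higher in the colon libraries, and all 5 red cell markers that were found and all 5 platelet markers were higher in the blood libraries. The disease labels did not separate the neutrophil markers. Mouse 1, labelled UC, and mice 7 and 9, labelled control, held the 3 highest values for 11 of 12 neutrophil genes in the colon and for 10 of 12 in the blood. Of 22123 colon genes with a mean of at least 10, mice 1, 7 and 9 held the 3 highest values for 18.3%. Mice 2, 4 and 8 held them for 14.7%, mice 1, 2 and 4 for 3.52% and mice 7, 8 and 9 for 2.11%. The columns of the deposited normalized tables of both tissues stand in the order of mice 1, 7, 9, 2, 4 and 8, which does not follow the disease labels either. Whether labels were exchanged was not tested. Every difference between libraries "labelled UC" and "labelled control" below, counts of 0 included, holds for the labels as given and would change if they were wrong.

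An lncRNA is transcribed and often spliced like a messenger RNA but is not translated into a known protein. Some lncRNAs build nuclear bodies, some silence neighbouring genes on the chromosome they are made from, and others matter mostly as the precursor from which small nucleolar RNAs (snoRNAs) or microRNAs are cut. In blood and gut, lncRNA levels are known to differ strongly between cell types, and several of these 10 genes respond to inflammation or to growth arrest.

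No member was called between libraries labelled UC and labelled control in either tissue. The paper, with DESeq2, reports H19 and Meg3 as differentially expressed in the colon of UC mice and Neat1 in their blood. It reports H19 as higher in UC mice, whereas its colon log2FC here was negative (-1.32). The paper also reports far more genes in each tissue. With the labels as given, DESeq2 called 6 of 22238 colon genes (0.027%) and 6 of 16759 blood genes (0.0358%). Why these results differ was not tested. A gene was called when edgeR's quasi-likelihood test gave an adjusted p of at most 0.05 and an absolute log2 fold change (log2FC) over 1. In the colon, 0 of the 9 members tested were called, beside 1 of 22238 genes overall (0.0045%). In the blood, 0 of the 8 members tested were called, beside 0 of 16759 genes (0%). Mir155hg had too few counts to be tested in either tissue, and Meg3 too few in the blood. With unadjusted p values below 0.05 the count of members was also 0 in both tissues, where 1.41% of all colon genes and 1.44% of all blood genes lay below that value, and DESeq2 and limma-voom also called 0 members. The log2FC of the members, labelled UC minus labelled control, had a median of -0.08 in the colon (all genes -0.01) and -0.20 in the blood (all genes 0.04). By normalized counts, 0 members had labelled groups that did not overlap. Among all tested genes these made up 5.66% in the colon (3.51% higher and 2.15% lower in the libraries labelled UC) and 6.5% in the blood (3.08% and 3.43%). The difference of the effect between tissues was tested as an interaction over 12 libraries, and 0 of 10 members were called, beside 1 of 23258 genes (0.0043%). DESeq2 and limma-voom also called 0 members, and 0 had an unadjusted p below 0.05, where 3.41% of all genes did. What follows is therefore mostly the level of each gene, library by library.

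**Figure D1:**
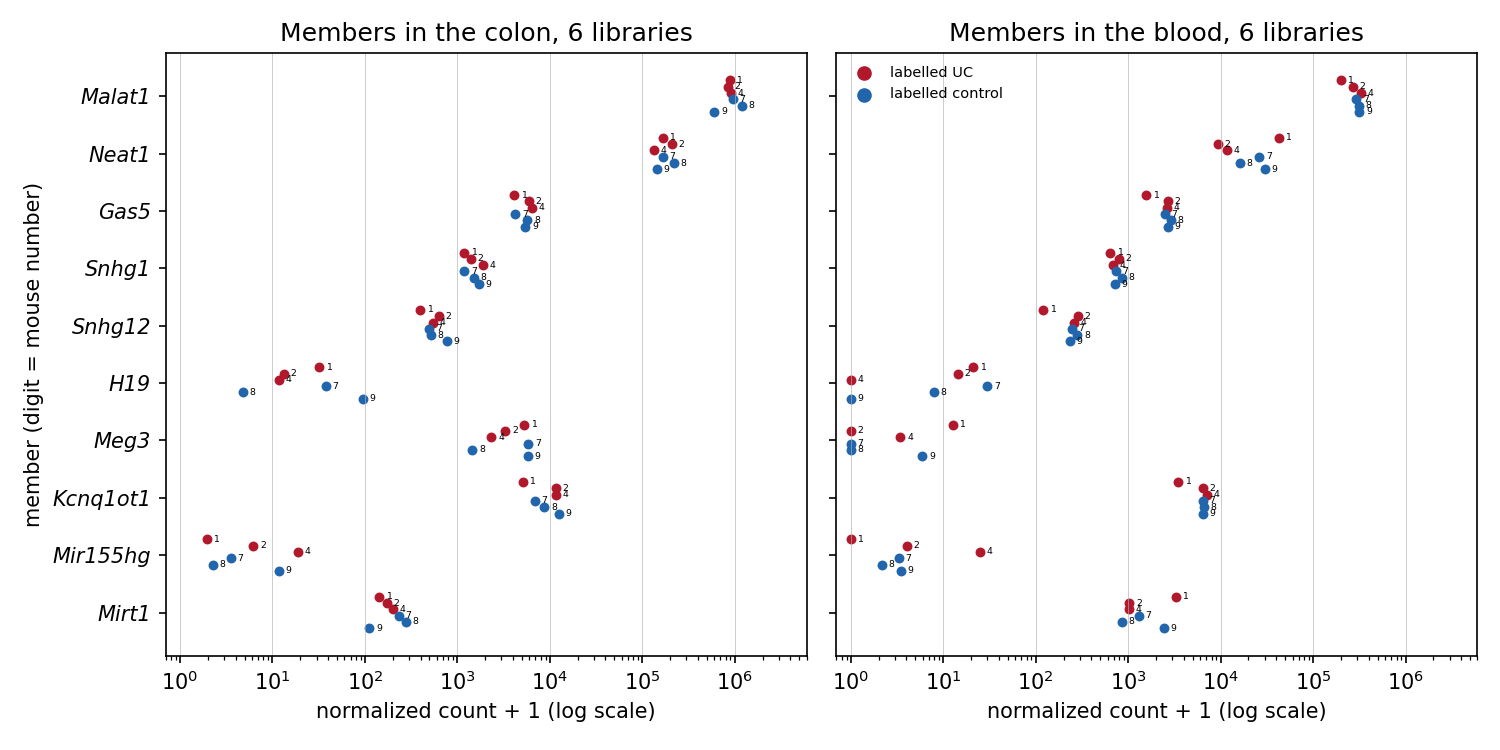
Normalized counts (+ 1, log scale) of the 10 members in the 6 colon libraries and the 6 blood libraries, 1 point per library with its mouse number, coloured by disease label. The labelled groups overlap for every member, Malat1 lies above all others, and H19 and Mir155hg stay under 100 normalized counts in every library.

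Malat1 and Neat1 are neighbours on chromosome 19 and both stay in the nucleus. Malat1 (5795690 to 5802672, minus strand, GRCm38) is a component of nuclear speckles, where splicing factors gather, and Neat1 (5824708 to 5845478, minus strand) is the scaffold of paraspeckles, which need its long form. The annotated exons of each cover its whole span. Their 3′ ends are known to be made by cleavage rather than by the usual polyadenylation, with a stretch of A encoded in the genome, and total RNA depleted of ribosomal RNA does not select on a poly(A) tail. The 100 bases up to the end of that stretch are shown because they are the sequence that the most abundant members share. Capitals mark runs of at least 11 bases that occur in both windows, chr19:5795982-5796081 for Malat1 and chr19:5824708-5824807 for Neat1 (GRCm38, minus strand, from GENCODE vM21 transcripts).
Malat1: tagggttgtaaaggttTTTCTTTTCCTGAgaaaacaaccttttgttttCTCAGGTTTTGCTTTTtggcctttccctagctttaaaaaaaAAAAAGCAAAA
Neat1: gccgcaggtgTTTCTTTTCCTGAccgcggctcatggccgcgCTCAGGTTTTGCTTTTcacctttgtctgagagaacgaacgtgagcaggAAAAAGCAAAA
The run TTTCTTTTCCTGA is found in transcripts of 21 of 55341 annotated genes (0.0379%), AAAAAGCAAAA in 376 (0.679%), and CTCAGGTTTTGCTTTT in 2, Malat1 and Neat1 themselves, searched on the transcript strand. In Neat1 the window ends with the annotated transcript, while in Malat1 another 292 annotated bases follow it.

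In the colon, the normalized counts of Malat1 (the authors' counts divided by 1 factor per library) were 879833, 848883 and 917288 in mice 1, 2 and 4, labelled UC, and 960581, 1185219 and 602373 in mice 7, 8 and 9, labelled control. Mice 8 and 9, both labelled control, held the highest and the lowest value, and the labelled groups overlapped. The log2FC was -0.07 (SE 0.309). Malat1 made up 1.21% of all normalized counts in the colon table on average and 0.614% in the blood table. Per kilobase of exon it ranked 1 of 6804 lncRNA genes in the colon and 3 of 4472 in the blood. In the blood its normalized counts were 198146, 270004 and 326899 in mice 1, 2 and 4 and 293087, 313347 and 316906 in mice 7, 8 and 9. The library of mouse 1 was the lowest and the other 5 lay close together; the log2FC was -0.22 (SE 0.354).

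Neat1 varied more in the blood than in the colon. Its colon normalized counts were 166995, 207449 and 134323 in mice 1, 2 and 4 and 168181, 220657 and 143811 in mice 7, 8 and 9, a 1.64-fold range, with a log2FC of -0.08 (SE 0.27). In the blood they were 42380, 9312 and 11653 in mice 1, 2 and 4 and 26138, 16209 and 30210 in mice 7, 8 and 9, a 4.55-fold range. Mouse 1 was highest and mice 2 and 4 lowest, so that the libraries labelled UC held both ends of the range and the labelled control libraries lay inside it. The log2 range of Neat1 in the blood, 2.19, was wider than that of 93.4% of 11105 blood genes with a mean of at least 100 normalized counts, and its log2 range in the colon, 0.72, was wider than that of 36.8% of 15842 colon genes. The log2FC in the blood was -0.20 (SE 0.573), and leaving out 1 mouse moved it between -1.20 (without mouse 1) and 0.16 (without mouse 2).

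The ratio of these neighbours was also read. Per kilobase of exon, the colon ratio of Neat1 to Malat1 lay between 0.0492 and 0.0822. In the blood it was 0.0719, 0.0116 and 0.012 in mice 1, 2 and 4 and 0.03, 0.0174 and 0.032 in mice 7, 8 and 9. The blood of mouse 1 reached the range of the colon, and the other 5 blood libraries lay below it.

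The neutrophil markers moved with Neat1 in the blood. Their summed normalized count was 497375, 55963 and 49123 in mice 1, 2 and 4 and 157732, 41020 and 361557 in mice 7, 8 and 9, and mice 1, 9 and 7 had the 3 highest values for both Neat1 and the sum. For 11.8% of 16370 blood genes with a mean of at least 10, these 3 libraries were the highest. The summed monocyte and macrophage markers ran from 72579 to 105158 and were highest in mouse 4. Gene by gene, mice 1, 7 and 9 were the 3 highest for 4 of these 10 markers and for 10 of 12 neutrophil markers. The part of either cell type in the Neat1 values was not tested; in bulk samples, more cells of a type and more RNA per cell cannot be told apart. The 3 blood genes with the pattern most like that of Neat1 over the 6 libraries were Nlrp3 (the sensor of an inflammasome), Gm8459 and Ugt1a7c. Their root mean square differences from Neat1 on the centred log2 scale were 0.079, 0.162 and 0.165, where the median over 11105 genes was 0.827.

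The proteins of both nuclear bodies were read beside their RNAs. Of 12 paraspeckle proteins, 0 were called between labels in either tissue by edgeR, DESeq2 or limma-voom, with a median log2FC of -0.01 in the colon and -0.10 in the blood. Among them, Sfpq, a core paraspeckle protein, had the lowest log2FC in the blood (-0.31). Of 12 nuclear speckle and splicing factors, also 0 were called by these tools, with medians of 0.14 in the colon and -0.15 in the blood; by unadjusted p, 0 of either list lay below 0.05 in either tissue.

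**Figure D2:**
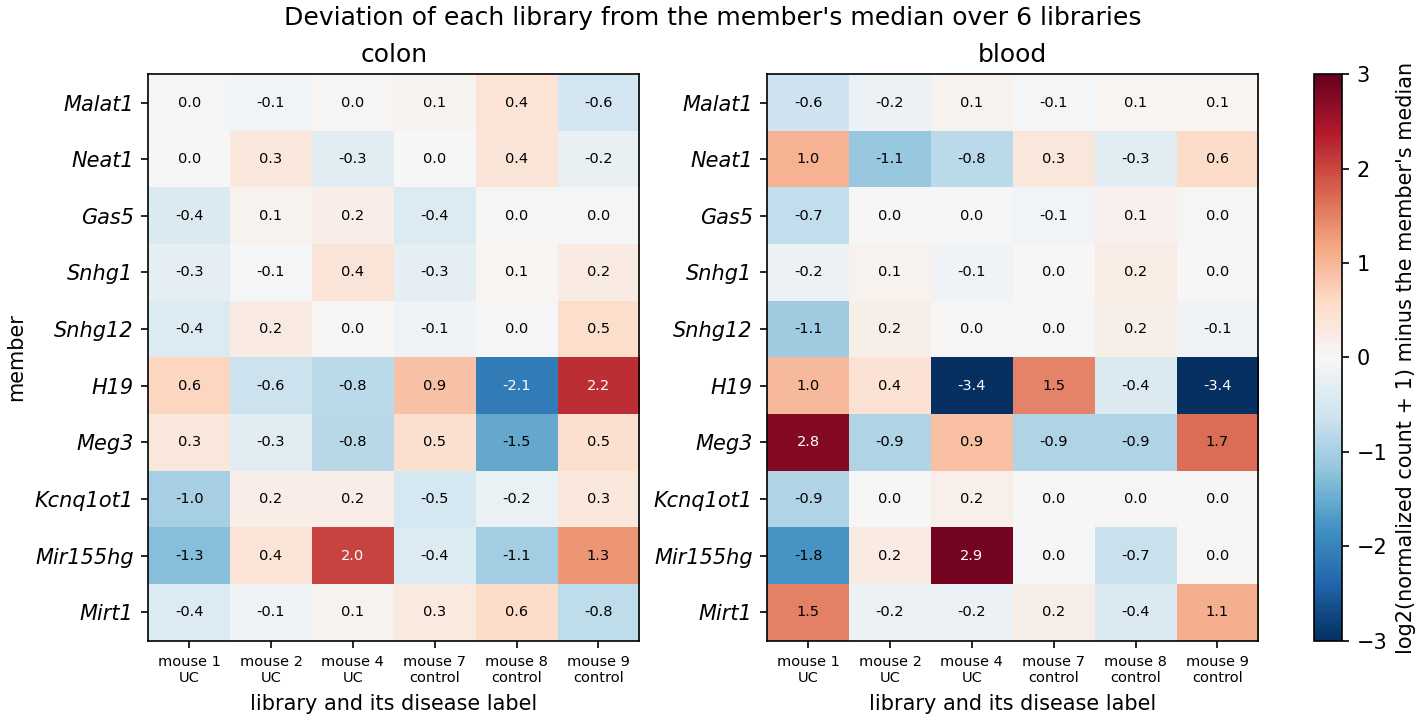
Log2(normalized count + 1) of each member in each library minus the member's median over the 6 libraries of that tissue, with the colour scale ending at 3 in either direction. Neat1 and Mirt1 are highest in blood mice 1, 7 and 9, Meg3 and H19 are high in colon mice 1, 7 and 9, and blood mouse 1 is low for Malat1, Gas5, Snhg1, Snhg12 and Kcnq1ot1.

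Gas5, Snhg1 and Snhg12 are snoRNA host genes: the snoRNAs, which guide the chemical modification of ribosomal RNA, are cut from the introns, and the spliced remainder is the lncRNA. Gas5 (chromosome 1, 161034422 to 161038539, plus strand) is named for its accumulation in growth-arrested cells, and 10 annotated snoRNA genes lie inside it. Snhg1 (chromosome 19, 8723475 to 8726443, plus strand) holds 8 and Snhg12 (chromosome 4, 132308623 to 132311024, plus strand) holds 5. These are annotated entries and not distinct snoRNAs, since Snord80 in Gas5 and Snora16a in Snhg12 each have overlapping entries of the same name. Such hosts are known to start with a run of pyrimidines, the 5′ terminal oligopyrimidine (TOP) tract of ribosomal protein genes, so the starts are shown. The sequences are 30 bases either side of the annotated start (RefSeq, GRCm38, plus strand), at chr1:161035136-161035195, chr19:8723457-8723516 and chr4:132308648-132308707, with the unbroken C and T run across the start in capitals.
Gas5: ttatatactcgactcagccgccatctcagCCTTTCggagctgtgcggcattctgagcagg
Snhg1: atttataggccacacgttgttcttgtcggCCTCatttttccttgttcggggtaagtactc
Snhg12: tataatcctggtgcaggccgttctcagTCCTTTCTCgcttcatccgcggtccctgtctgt
The run is 6 bases long in Gas5, 4 in Snhg1 and 9 in Snhg12. Among 32851 promoters, 7.25%, 14% and 3.03% have a run at least as long across the start, read on the strand of the gene; such a match is a description of the letters, not proof of a TOP tract. Gas5 has 2 annotated promoters, and the one shown is where 9 of its 25 annotated transcripts start within 5 bases. At the starts shown for Snhg1 and Snhg12, 2 of 18 and 5 of 10 annotated transcripts start within 5 bases.

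Gas5 in the colon stood at 4139, 5987 and 6362 normalized counts in mice 1, 2 and 4 and 4221, 5706 and 5447 in mice 7, 8 and 9, with mice 1 and 7 lowest. In the blood it stood at 1570, 2664 and 2608 in mice 1, 2 and 4 and 2486, 2896 and 2685 in mice 7, 8 and 9, where mouse 1 lay below all others. The colon log2FC was 0.09 (SE 0.223) and that of the blood -0.24 (SE 0.26). In the blood, leaving out mouse 1 brought it to -0.03.

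Colon Snhg1 reached 1186, 1399 and 1883 normalized counts in mice 1, 2 and 4 and 1189, 1504 and 1713 in mice 7, 8 and 9. In the blood they were 642.4, 791.7 and 685.7 in mice 1, 2 and 4 and 735.9, 846.8 and 723.2 in mice 7, 8 and 9. This is a 1.32-fold range, and only 6.33% of the 11105 blood genes had a narrower log2 range. The log2FC was 0.01 (SE 0.239) in the colon and -0.12 (SE 0.208) in the blood, so the labelled groups differed by less than the SE in each tissue.

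Colon Snhg12 reached 396.9, 627 and 548.5 normalized counts in mice 1, 2 and 4 and 497, 515.5 and 768.4 in mice 7, 8 and 9. In the blood they were 119, 283 and 259.4 in mice 1, 2 and 4 and 243.5, 281.5 and 234.2 in mice 7, 8 and 9. Mouse 1 was again the lowest in both tissues, and the log2FC was -0.19 (SE 0.292) in the colon and -0.20 (SE 0.351) in the blood. The blood genes most like Snhg12 in pattern were Gm20775, Rps6kb1 (a kinase that acts on ribosomal protein S6) and Gbp9 (a guanylate-binding protein), with root mean square differences of 0.047, 0.0554 and 0.0607 against a median of 0.511.

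The ratios between hosts were narrow in the colon. Per kilobase of exon, Snhg1 lay at 0.296 to 0.398 of Gas5 and Snhg12 at 0.36 to 0.554 of Snhg1. In the blood the first ratio was 0.333 to 0.376 in 5 libraries and 0.518 in mouse 1, and the second was 0.4 to 0.468 in the same 5 and 0.229 in mouse 1. The blood library of mouse 1 thus stood apart for the ratios as it did for the levels.

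The snoRNA genes inside the hosts gave few counts. The summed counts were 117 to 388 per colon library for Gas5, 221 to 434 for Snhg1 and 65 to 188 for Snhg12. A count of exactly 1 in all 12 libraries was listed for 6 of the 10 snoRNA genes in Gas5, for 4 of 8 in Snhg1 and for 2 of 5 in Snhg12. Among them were an entry of Snord80 and an entry of Snora16a whose overlapping entry of the same name held more counts in every colon library. A count of 1 in all libraries was found for 127 of 53801 genes, of which 44 were snoRNA and 77 microRNA genes and 0 protein-coding. These counts derive from transcript coverage, and the origin of the constant 1 was not tested. A 1 in such a row therefore cannot be read as expression. Snord22, inside Snhg1, had 171 to 357 counts in the colon libraries and 2 to 464 in the blood libraries, where only mice 2 and 9 had more than 24. Of the other snoRNA host lncRNAs, 14 were tested in the colon and 11 in the blood. By edgeR, DESeq2 and limma-voom 0 were called between labels, and 0 had an unadjusted p below 0.05. Dancr, a host that is known for its part in cell differentiation, had the lowest log2FC in both tissues (colon -0.75, blood -0.59). Its values rest on few counts, 9 to 32 per colon library and 149 over all blood libraries. The 14 messenger RNAs of the translation machinery, which carry TOP tracts, also had 0 calls by these tools and 0 at an unadjusted p below 0.05, with median log2FC of 0.06 and 0.08.

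H19, Meg3 and Kcnq1ot1 are imprinted: H19 and Meg3 are made from the maternal chromosome, Kcnq1ot1 from the paternal one, where it silences its neighbours. H19 (chromosome 7, 142575529 to 142578143, minus strand) shares enhancers with the growth factor gene Igf2 and carries miR-675 in an exon. Meg3 (chromosome 12, 109541001 to 109571726, plus strand) lies in the domain of Dlk1 and carries miR-770 and miR-1906 in exons. Mir155hg (chromosome 16, 84703167 to 84715245, plus strand), taken here with the other microRNA hosts, is the precursor of miR-155, a regulator of immune cells. The mature microRNAs are shown because they are the known products of these genes (RefSeq, GRCm38.p6). The seed, bases 2 to 8, which pairs with targets, is in capitals.
miR-155-5p: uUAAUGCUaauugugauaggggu
miR-155-3p: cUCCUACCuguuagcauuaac
miR-675-5p: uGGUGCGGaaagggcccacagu
miR-675-3p: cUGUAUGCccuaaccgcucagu
miR-770-5p: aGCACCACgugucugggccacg
miR-770-3p: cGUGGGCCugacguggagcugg
miR-1906: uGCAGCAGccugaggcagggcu
The 7 sequences have 7 different seeds. Small RNA was not measured in these libraries, and the rows of the microRNA genes themselves held at most 2 counts in any library. The values below are therefore those of the long host transcripts. The study sequenced small RNA separately, and those data were not used here. From them and human data, the paper names miR-155-5p among microRNAs differentially expressed in the colon of both species.

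H19 had few counts. Its colon normalized counts were 31.3, 12.2 and 10.7 in mice 1, 2 and 4 and 36.7, 3.78 and 94.5 in mice 7, 8 and 9, from 3 to 105 counts per library. Mice 9, 7 and 1 were highest, and the libraries labelled control held both the highest and the lowest value. Its log2FC of -1.32 (SE 1.03, adjusted p = 0.9999 by edgeR) was the largest of any member between labels in the colon, and it moved between -1.97 (without mouse 1) and -0.20 (without mouse 9). In the blood H19 had 20, 13.5 and 0 in mice 1, 2 and 4 and 29.1, 6.89 and 0 in mice 7, 8 and 9, with 72 counts in all. A count of 0 allows up to 3 counts in such a library, counting error only.

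Meg3 was counted almost entirely in the colon. Its colon normalized counts were 5305, 3301 and 2341 in mice 1, 2 and 4 and 5851, 1451 and 5837 in mice 7, 8 and 9. Mice 7, 9 and 1 were highest, as for H19, and mouse 8 lowest, a 4.03-fold range. The log2FC was -0.27 (SE 0.557). In the blood 3 of 6 libraries had no count, and all 6 together held 20. The next genes of the same imprinted domain followed Meg3: Rian, another maternally expressed lncRNA, had 3729, 1881 and 1582 in colon mice 1, 2 and 4 and 3485, 912.6 and 4340 in mice 7, 8 and 9. Mirg, a microRNA host further along, had 362.8, 207.3 and 179 and then 394.6, 73.1 and 443.6. For both, mice 1, 7 and 9 were highest and mouse 8 lowest. The protein-coding Dlk1 had at most 48.6 normalized counts in any colon library.

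The 3 libraries that were highest for Meg3 and H19 were the highest for 18.3% of 22123 colon genes. They were also the highest for 13 of the 15 genes found of a list of imprinted growth genes, a list that contains both members. The colon genes most like Meg3 in pattern were Slc10a4, Doc2b and Prkar1b, with root mean square differences of 0.0727, 0.0924 and 0.096 against a median of 0.822 over 15842 genes. All are known from neurons: a vesicle transporter, a calcium sensor of vesicle release and a subunit of protein kinase A. After these names were seen, 10 markers of enteric neurons, the nerve cells of the gut wall, were read. Their summed normalized count was 17576, 7257 and 7182 in mice 1, 2 and 4 and 15779, 3853 and 28944 in mice 7, 8 and 9, and mice 1, 7 and 9 were highest for 10 of 10. The summed fibroblast markers were 169269, 153775 and 113427 and then 240291, 109492 and 276455, with the same 3 libraries highest for 3 of 8 genes. Neutrophil markers in the colon had the same 3 libraries highest for 11 of 12 genes, and monocyte and macrophage markers for 9 of 10. The part of these cell types in the Meg3 and H19 values was not tested.

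**Figure D3:**
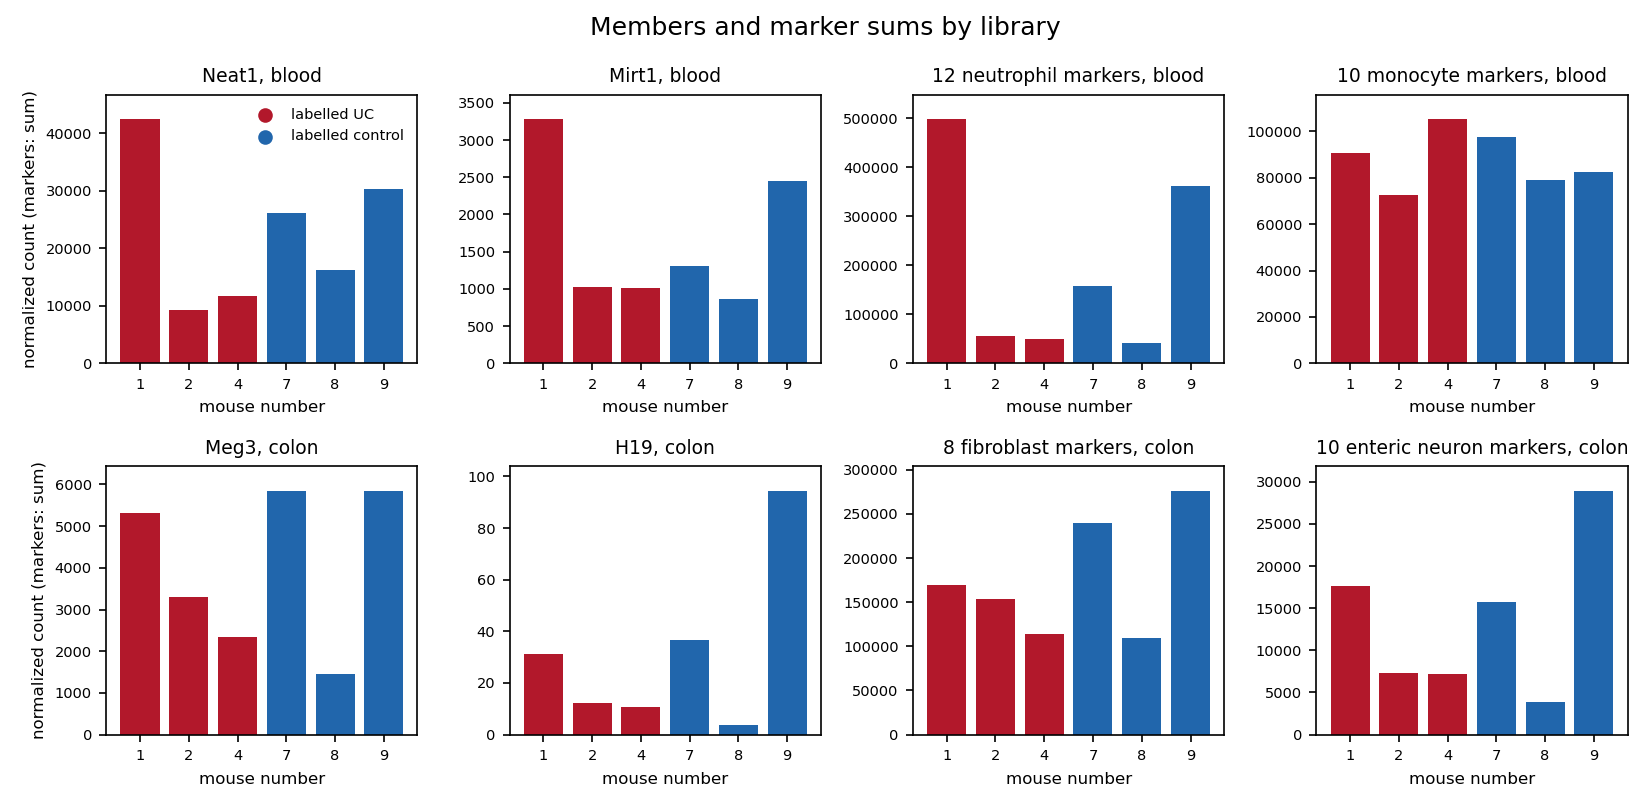
Normalized counts by mouse number, coloured by disease label: top row blood (Neat1, Mirt1 and the sums of 12 neutrophil and 10 monocyte and macrophage markers), bottom row colon (Meg3, H19 and the sums of 8 fibroblast and 10 enteric neuron markers); all bars start at 0. Mice 1, 7 and 9 are highest for Neat1, Mirt1 and the neutrophil markers in the blood, and for Meg3, H19 and both marker sums in the colon.

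Kcnq1ot1 (chromosome 7, 143203458 to 143296549, minus strand) is a single exon that lies antisense inside the potassium channel gene Kcnq1. Its colon normalized counts were 5072, 11575 and 11573 in mice 1, 2 and 4 and 6939, 8722 and 12632 in mice 7, 8 and 9, with mouse 1 lowest and mouse 9 highest. In the blood they were 3475, 6367 and 7178 in mice 1, 2 and 4 and 6427, 6571 and 6468 in mice 7, 8 and 9. In the blood 5 libraries were close together and mouse 1 lay below them. The log2FC was -0.01 (SE 0.374) in the colon and -0.19 (SE 0.297) in the blood. Without strand, reads of Kcnq1ot1 and of Kcnq1 cannot be told apart where they overlap. Kcnq1 had 1806 to 5087 counts in the colon libraries and 0 to 3 in the blood libraries, whereas Kcnq1ot1 had 5355 to 14039 and 3300 to 8773. The colon genes most like Kcnq1ot1 in pattern were Rad51b, Zfp251 and Gspt2 (root mean square differences 0.102, 0.106 and 0.109, median 0.556). Those in the blood were Ms4a6b, Ddx3y and Nfxl1 (0.0271, 0.0462 and 0.0466, median 0.451).

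Of the 24 imprinted and neighbouring genes of the members, such as Igf2, Cdkn1c and Slc3a2, the colon fit tested 23 and the blood fit 14, and 0 were called between labels by edgeR, DESeq2 or limma-voom. By unadjusted p, 0 lay below 0.05 in the colon and 1 in the blood. Dlk1 had the lowest log2FC in the colon (-1.13) and Kcnq1 the highest (0.53), while in the blood Cd81, a tetraspanin of the cell surface, had the lowest (-0.27) and Tssc4 the highest (0.92).

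Mir155hg and Mirt1 are the members best known from immune activation and tissue injury. Mir155hg had 0.947, 5.23 and 18.1 normalized counts in colon mice 1, 2 and 4 and 2.53, 1.26 and 10.8 in mice 7, 8 and 9, a total of 44 counts. In the blood it had 0, 3.01 and 23.7 and then 2.30, 1.15 and 2.48, a total of 38 counts. Mouse 4, labelled UC, was highest and mouse 1, also labelled UC, lowest in both tissues. These counts were too few to be tested within a tissue.

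Mirt1 (chromosome 19, 53443230 to 53464796, minus strand) was named for its rise in the mouse heart after infarction. In the blood its normalized counts were 3278, 1031 and 1019 in mice 1, 2 and 4 and 1306, 858.3 and 2453 in mice 7, 8 and 9. Mice 1, 9 and 7 were highest, as for Neat1 and the neutrophil markers, and mouse 8 lowest. The range was 3.82-fold, wider on the log2 scale than that of 90.4% of the 11105 blood genes, and the log2FC was 0.20 (SE 0.543). It moved between -0.58 (without mouse 1) and 0.71 (without mouse 9). In the colon Mirt1 had 142.1, 173.3 and 202.1 in mice 1, 2 and 4 and 230.2, 277.3 and 110.7 in mice 7, 8 and 9, with a log2FC of -0.28 (SE 0.42). There mouse 9 was the lowest and mouse 8 the highest, both labelled control.

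An unnamed lncRNA gene, 4833407H14Rik, lies antisense inside Mirt1 and overlaps its exons. It had 210.6 to 1132 normalized counts in the colon, more than Mirt1 in every library, and 163.2 to 443.5 in the blood, fewer than Mirt1 in every library. The colon values of Mirt1 are for this reason uncertain. The blood genes most like Mirt1 in pattern were Id1 (an inhibitor of DNA-binding factors), Cd300lb (a receptor of myeloid cells) and Pfkfb4 (a regulator of glycolysis), with root mean square differences of 0.0489, 0.124 and 0.127 against a median of 0.771. In the colon they were the noncoding genes 5830448L01Rik, Gm22634 and Gm24146, with 0.0829, 0.0848 and 0.0861 against a median of 0.542.

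Of 24 other lncRNAs that are often studied, among them Tug1, Pvt1 and Hotairm1, the colon fit tested 18 and the blood fit 12, and 0 were called between labels by edgeR, DESeq2 or limma-voom. By unadjusted p, 0 lay below 0.05 in the colon and 1 in the blood. Dnm3os, which hosts microRNAs, had the lowest log2FC in the colon (-1.03) and Hottip the highest (0.47). Both signs are opposite to the paper, which reports Dnm3os as higher and Hottip as lower in the colon of UC mice. Why the directions differ was not tested.

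The levels of the members were put in order per kilobase of exon, since a longer transcript gives more counts. In the colon, the medians over 6 libraries were 128678 normalized counts per kilobase for Malat1, 8068 for Neat1, 1483 for Gas5 and 488.9 for Snhg1. Meg3 followed with 237.9, Snhg12 with 221.5 and Kcnq1ot1 with 109, and Mirt1, H19 and Mir155hg were lowest with 21.9, 8.83 and 2.71. An exact two-sided sign-flip permutation test compared each neighbouring pair, with adjustment over 9 pairs. The pairs and their direction came from the medians of the same libraries, so the test describes this order and is not independent support for it. In the colon 6 of 9 pairs differed in the same direction in 6 of 6 libraries, with p = 0.0312 in the exact permutation test, the smallest it can give, and adjusted p = 0.0468. Meg3 and Snhg12 did not differ beyond their spread (adjusted p = 0.688, exact permutation test), and neither did Mirt1 and H19 or H19 and Mir155hg (adjusted p = 0.175, exact permutation test). Without any 1 of the 6 mice, no pair could pass, since 5 libraries give p = 0.0625 at the least in the permutation test.

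In the blood the order was Malat1 (43422 normalized counts per kilobase), Neat1 (1019), Gas5 (701.1), Snhg1 (245.7), Mirt1 (136.4), Snhg12 (104.7), Kcnq1ot1 (69.3), H19 (4.15), Mir155hg (1.67) and Meg3 (0.0678). Here 0 of 9 pairs passed the adjustment. For Malat1 over Neat1, Gas5 over Snhg1, Snhg12 over Kcnq1ot1 and Kcnq1ot1 over H19, the exact permutation test gave p = 0.0312 with 6 of 6 libraries in the same direction, and adjusted p = 0.0702. Whether a pair at this smallest p passes depends on how many pairs reach it. The counts of passing pairs therefore cannot be compared between the tissues. Neat1 was above Gas5 in 4 of 6 blood libraries, and Mirt1 below Snhg1 in 4 of 6. Within each tissue, Malat1, Neat1, Gas5 and Snhg1 stood first in this order by exon length. With the longest transcript as the length, Mirt1 stood above Snhg1 in the blood. The places of Meg3 and Mirt1 differed between the tissues.

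**Figure D4:**
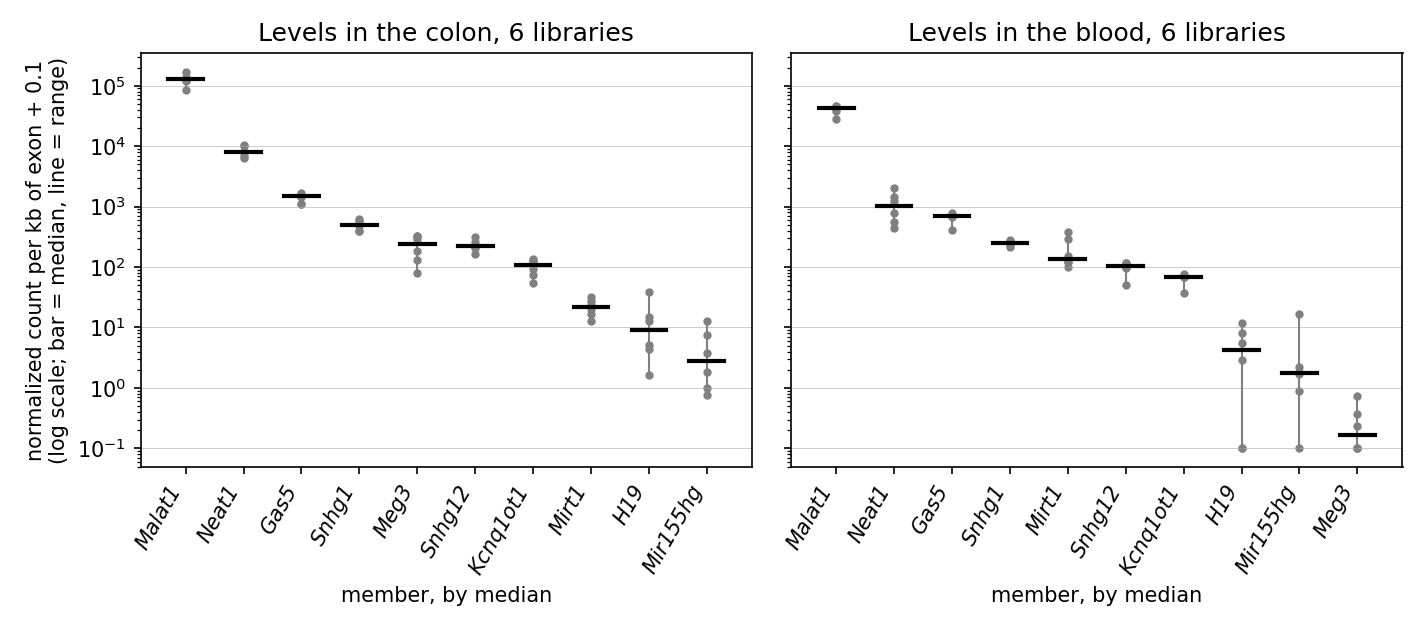
Normalized counts per kilobase of exon (+ 0.1, log scale) of the members, ordered by median in each tissue; grey points are the 6 libraries, grey lines their range and black bars the median. The scales of the panels come from separate normalizations, and Meg3 stands just below Snhg1 in the colon and last in the blood.

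The tissues themselves were compared over all 12 libraries with TMM scaling. By the same threshold, 4 of 10 members were called, where 58.5% of 23258 genes were, 37.7% higher and 20.8% lower in the colon. By unadjusted p, 6 of 10 members lay below 0.05, where 72.8% of all genes did. With only 10 members, the differences from the shares of all genes are not read as a result about the members. Meg3 was among the members called and was higher in the colon. Its median was 50.3 CPM (counts scaled to equal library totals) in the colon against 0.0109 in the blood. Meg3 passed the filter through the colon and had 20 blood counts in all, so the size of its fold is not given. Neat1 was higher in the colon by a log2FC of 1.23 (SE 0.372, adjusted p = 0.01198 by edgeR), and by 0.97 without mouse 2, which ends the call.

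Mirt1 was lower in the colon, with a log2FC of -4.85 (SE 0.442, adjusted p = 2.952e-06 by edgeR). Kcnq1ot1 was lower in the colon with a log2FC of -1.08 (SE 0.252, adjusted p = 0.002703 by edgeR), a direction that turns when counts are scaled by library size only (1.04). Without mouse 7 or mouse 8 its value was -0.98 or -0.94, and the call was lost. Gas5 at -0.61 (SE 0.169) and Snhg1 at -0.70 (SE 0.153) passed the adjusted p but not the fold, and both turned with library size only (1.50 and 1.43). Malat1 at -0.05 (SE 0.224), Snhg12 at -0.47 (SE 0.237), H19 at -0.41 (SE 1.04) and Mir155hg at -1.13 (SE 0.984) were not called, and with library size only these stood at 2.03, 1.65, 1.82 and 0.90.

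The scaling shifted this comparison as a whole. The 7SL genes held a larger share of the blood counts than of the colon counts, but their part in the shift was not tested. The median log2FC of all 23258 genes was 0.46 with TMM, 0.52 with RLE factors and 2.57 with library size only. Read against that median, the values moved little between scalings: Neat1 lay at 0.77 above it with TMM and at 0.79 with library size only. Mirt1 lay at -5.30 and -5.34, Kcnq1ot1 at -1.54 and -1.53, Snhg1 at -1.16 and -1.14 and Gas5 at -1.07 with both. Relative to the typical gene, Malat1 was at -0.51 and -0.54. The depletion kits and the RNA extraction differ between the tissues, so tissue and preparation cannot be told apart.

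**Figure D5:**
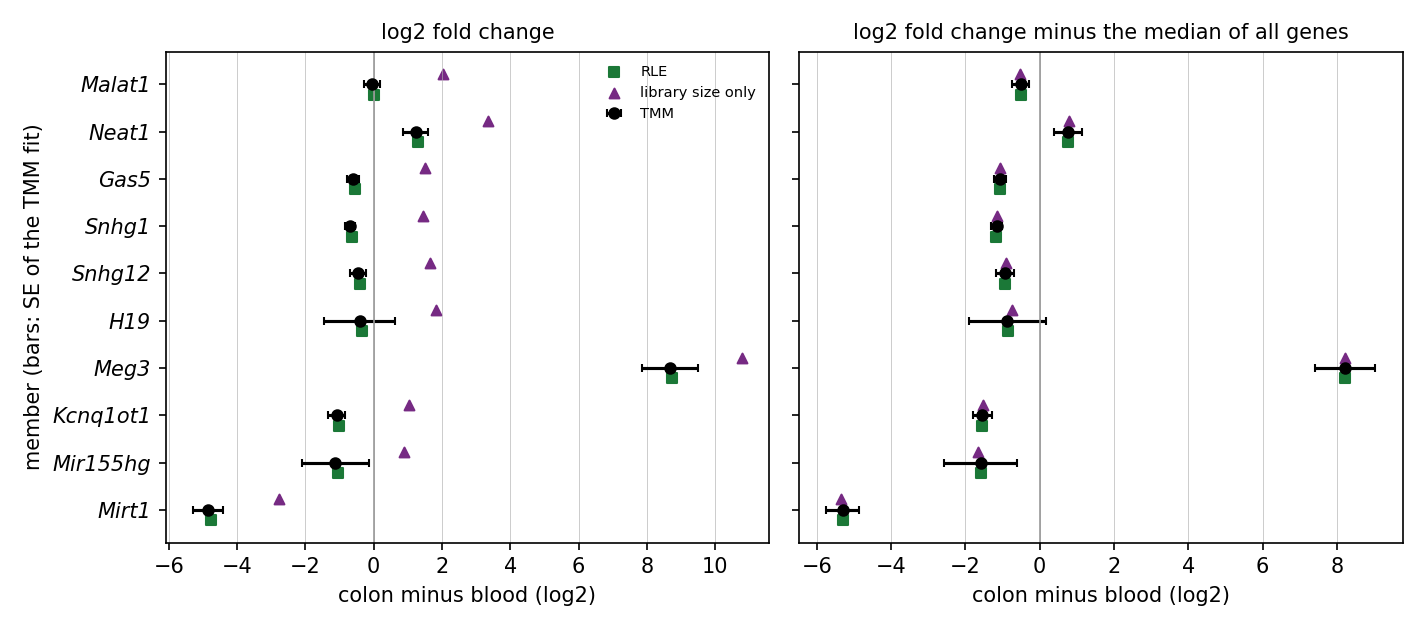
Log2 fold change of each member, colon minus blood, over 12 libraries under TMM (black, with SE), RLE factors (green) and library size only (purple); left as fitted, right minus the median of all genes under the same scaling. The 3 scalings differ on the left, where Malat1, H19, Kcnq1ot1, Gas5, Snhg1, Snhg12 and Mir155hg change sign under library size only, and lie close together on the right.

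The lists around the members were read in the same way, and their counts depend on the scaling. With TMM, 37.7% of all genes were higher and 20.8% lower in the colon, and with library size only 76.9% and 7.55%. Of the 23 imprinted and neighbouring genes tested, 11 were higher and 6 lower with TMM, and 17 and 2 with library size only. Of the 11, 8 had no count in at least 3 of the 6 blood libraries, so that they passed the filter through the colon and the size of their fold is not given. Mirg held 58 to 493 counts per colon library and Igf2 31 to 276, and both had 0 counts in all 6 blood libraries. Rian held 724 to 4823 counts per colon library and 9 in all blood libraries together. Kcnq1, whose antisense RNA is Kcnq1ot1, had 19777 counts over the colon libraries and 5 over the blood libraries.

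Among 12 paraspeckle proteins, 1 was higher and 3 lower in the colon with TMM, against 10 and 0 with library size only. Smarca4, a chromatin remodeller, was higher by 1.06 (SE 0.168), and by 3.21 with library size only. Pspc1, a core paraspeckle protein, was lower with TMM (-2.04, SE 0.212), and stood at 0.06 with library size only. Of the 12 nuclear speckle and splicing factors 0 were called by edgeR with TMM, DESeq2 or limma-voom, with 4 at an unadjusted p below 0.05, whereas with library size only 12 were higher.

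Of the 14 other snoRNA hosts, 3 were higher and 2 lower in the colon with TMM, against 11 and 0 with library size only. Snhg11 held 437 to 1962 counts per colon library and 1 count in all blood libraries together. Snhg9 stood at -2.08 (SE 0.809) with TMM and 0.09 with library size only. Few counts lie behind Snhg9, 9 to 32 per colon library and 180 over all blood libraries, of which 1 library held 77. Of the 18 other lncRNAs tested, 8 were higher and 8 lower with TMM, against 10 and 0 with library size only, and 5 of the 8 that were higher had no count in at least 3 blood libraries. Hoxa11os, a lncRNA of a Hox gene cluster, held 271 to 4832 counts per colon library and 0 in the blood libraries. Hotairm1, known from myeloid cells, had the lowest value at -3.04 (SE 0.358), and stood at -0.88, no longer called, with library size only.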

How the data were processed

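Total RNA-seq of 12 libraries was used. The deposited gene counts were derived by the authors from StringTie 1.3.4c transcript coverage, after filtering out reads of ribosomal RNA and aligning to GRCm38 by STAR. No strand setting is stated, and the StringTie defaults use none. The deposited normalized signal tables, 1 per tissue, hold these counts divided by 1 factor per library. They were compared only within a tissue. GENCODE vM21 (GRCm38) held 53706 of 53801 gene identifiers and gave gene types, exon lengths and overlaps.

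Groups came from the disease and tissue characteristics and mouse numbers from the titles. Members and lists were chosen with earlier results of these data known, and the enteric neuron list after patterns like that of Meg3 were seen. Named were all members, list genes that were called, overlapped or neighboured a member or had the extreme value of their list, and, where a member had a mean of at least 100 and a log2 range of at least 1, the 3 genes nearest in pattern.

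Counts were tested with edgeR 4.0.16 in R 4.3.3 (TMM, filterByExpr, glmQLFTest, Benjamini-Hochberg over all genes), per tissue for disease labels and over 12 libraries for tissue and interaction. SE is the log2FC over the square root of F. Levels per kilobase were tested by exact sign-flip permutation on log2(value + 0.1). Alternatives were RLE factors, library size only, no filter, a mean of at least 10 counts, DESeq2 1.42.0, limma-voom 3.58.1, the genes of the authors' tables, adjusted p alone, each mouse left out, and the replicate block. The study took colon and blood from the same mice, so the numbers pair the libraries. Deviations from the group means of same-numbered colon and blood libraries correlated across 15802 genes with r from 0.00476 to 0.227, over 0.1 in 3 of 6 pairs; genes are not independent replicates. Each label group has 3 mice. Intervals and floors cover counting error only.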

Additional observations from a re-analysis of the deposited data

How the results depend on the processing

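Between labels, 0 members were called in the colon, in the blood and in the interaction under every alternative run, with 14 alternatives for each. In the colon versus blood comparison, 4 of 10 members were called, and 3 to 4 with 1 mouse left out (3 without mouse 2, 7 or 8), 3 with no filter, 6 with adjusted p alone and 8 with library size only; of all genes, 58.5% were called, and 43.6%, 70.3% and 84.5% under the last 3 settings. Library size only also reversed Kcnq1ot1 (1.04), Gas5 (1.50), Snhg1 (1.43) and Snhg12 (1.65), and changed the sign of Malat1 (2.03), H19 (1.82) and Mir155hg (0.90), which were not called with TMM, where the median of all genes moved from 0.46 to 2.57; in the blood between labels it moved the median from 0.04 to -0.27. With the mouse number as replicate block, 4 members were called between tissues and 0 in the interaction, and the block changed no member call. Over all genes, the interaction called 1 gene, 0 with the block, 19 with DESeq2 and 2 without mouse 8. Between labels, DESeq2 called 6 genes in each tissue, where edgeR called 1 in the colon and 0 in the blood; limma-voom called 0 in each. With 1 mouse left out, the calls over all genes were 0 in the colon for each mouse and, in the blood, 3 without mouse 1 and 1 without mouse 8 or 9. In the order of levels, 6 colon pairs and 0 blood pairs passed, with exon length, longest transcript or gene span alike. The order itself changed with the length used. By longest transcript, Gas5 stood above Neat1 and Mirt1 above Snhg1 in the blood, and Snhg12 above Meg3 in the colon. With 1 mouse left out the colon count was 0 to 0, since 5 libraries cannot pass. H19, Mir155hg and blood Meg3 rest on few counts, which limits what could be detected.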
